A study of Mus musculus with 4 samples.

Results

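Voltage-gated potassium channels (Kv channels) open when the membrane is depolarized and let potassium leave the cell, which repolarizes the neuron and sets the width and the rate of its action potentials. Each channel is built of pore-forming subunits, and the subunits fall into families named after fly genes (Shaker, Shab, Shaw, Shal and EAG) and the KCNQ family, whose channels carry the M-current. The silent subunits do not form channels alone and change the properties of the Shab subunits they join. In neurons, methylation of CpG cytosines is usually low at the promoters of genes of this kind, where CpGs are dense, and high in introns and in exons far from the start.

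DNA methylation was described here at 27 pore-forming and silent Kv subunit genes in the brain of female offspring of mothers treated with estriol (E3). The genes were a named set: Kcna1, Kcna2, Kcna3, Kcna4, Kcna5 and Kcna6 (Shaker), Kcnb2 (Shab), Kcnc1, Kcnc2 and Kcnc4 (Shaw), Kcnd2 and Kcnd3 (Shal), Kcnq3 and Kcnq5 (KCNQ), Kcnh1 and Kcnh5 (EAG), Kcnh2, Kcnh6 and Kcnh7 (ERG), Kcnh3, Kcnh4 and Kcnh8 (ELK), and the silent subunits Kcns1, Kcns2, Kcns3, Kcnf1 and Kcnv1. They are 27 of 18707 coding genes of the mm10 RefSeq annotation (GRCm38.p6) with a measured CpG site, where a gene reached from 1 kb before its start to its end. The names came from the gene family and not from these measurements.

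CD-1 is an outbred mouse stock. Pregnant CD-1 females carried a mini-osmotic pump for 7 days from gestation day 9, filled with E3 in DMSO or with DMSO alone (CT). The offspring were female, wild type and, per the labels, 8 weeks old. The 4 libraries were E3 and CT of the frontal cortex and E3 and CT of the hippocampus, 1 library for each tissue and treatment, and the sources do not give the number of mice behind a library. There is therefore no replicate, every p-value compares a pair of libraries and not the treatments, and a difference of treatment, of mouse or of genotype between outbred animals cannot be told apart. The assay was Methyl-MiniSeq, in which DNA is cut with TaqαI and MspI, treated with bisulfite and sequenced, so that cytosines near the cut sites are read.

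In the hippocampus, 3500 CpG sites of the Kv genes, each strand of a CpG being a site, had 5 or more reads in both libraries, of 2226271 sites in the whole table. The median depth at these 3500 sites was 28 reads in E3 and 9 in CT. At these depths a site without methylated reads in CT needed 11 methylated reads in E3 (39.3%) to be called, and a site without methylated reads in E3 needed 3 methylated reads in CT (33.3%). For the frontal cortex, methylated fractions were at hand for sites already called by the authors, 9731 CpG sites in all, and their read depth is unknown. The promoters of cell type marker genes were also described, but their levels are no check of the tissue, since methylation gives no expression level. Of 5 neuron markers, 5 promoters were measured, between 2.23% and 71.6% in E3 and between 0.53% and 60.8% in CT, and none was called. Of the markers of astrocytes, 1 of 3 measured promoters was called, Gfap with 67.6% in E3 and 56.4% in CT, and of those of microglia 2 of 3, P2ry12 with 60.5% and 40.4% and Cx3cr1 with 63.0% and 97.9%. The P2ry12 and Cx3cr1 promoters had 5 sites each, with 57 and 48 reads in CT. Over all promoters 9.67% were called. None of 3 oligodendrocyte promoters, which lay between 0.92% and 10.2% in E3 and between 0.12% and 5.17% in CT, was called. The part of the cell makeup in the results below was not tested.

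The promoters of the Kv genes were lowly methylated in both hippocampus libraries. Within 1000 bases of the gene start, 24 of the 27 genes had at least 5 measured sites, and in 20 of them (83.3%) under 10% of reads were methylated in E3 and in CT, against 60.8% of 20169 promoters of all genes. Their median was 2.34% in E3 and 2.21% in CT, with 3.88% in each library over all promoters. Kcna2, Kcnc2 and Kcnv1 had too few sites at the gene start.

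The sequence before the start of Kcna3, a Shaker subunit also known from T lymphocytes, is printed as an example of a CpG-dense promoter. In the 250 bases of chr3:107035912-107036161 (mm10, plus strand, from RefSeq) there are 31 CpGs, and capitals mark the 7 that were measured.
Kcna3 promoter: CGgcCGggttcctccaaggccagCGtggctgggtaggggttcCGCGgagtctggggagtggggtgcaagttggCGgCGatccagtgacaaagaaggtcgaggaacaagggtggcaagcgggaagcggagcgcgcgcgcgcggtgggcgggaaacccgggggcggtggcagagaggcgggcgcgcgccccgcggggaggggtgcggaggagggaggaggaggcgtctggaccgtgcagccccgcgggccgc
These 7 CpGs had 0 to 1.69% methylated reads in E3, of 59 to 87 reads, and 0 to 11.5% in CT, of 25 to 40 reads. None of the 7 was called. In the RefSeq promoter table (250 bases before to 50 after a start), 11 of the Kv genes had an entry at the gene start, with a median of 21 CpGs in 300 bases, against 7 over 32817 promoters. Kcna3 had the most of the 11, with 37 CpGs, and the entries with the fewest were Kcnq5 and Kcnf1 with 3 CpGs and Kcna5 with 4.

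No promoter of the 24 passed an adjusted p under 0.05 with a difference of 10 points, where 9.67% of all promoters did, 4.69% higher and 4.99% lower in E3 (2-sided Fisher's exact test on summed reads, adjusted over 20169 promoters). Without adjustment and without the limit of 10 points, 9 of 24 had p under 0.05 (37.5%), against 39.7% of all promoters. The lowest promoter was that of Kcnh6, an ERG subunit, with 0% of 50 reads in E3 and 0% of 90 reads in CT. In Kcna4, a Shaker subunit with fast inactivation, 0.52% of 382 reads were methylated in E3 and 0% of 130 in CT. In Kcnq3, a subunit of the M-channel, it was 0.78% of 1407 reads and 0.45% of 661, in Kcnq5 1.78% of 729 and 0.46% of 218, and in Kcna6 2.31% of 648 and 0% of 233. The 95% Wilson intervals of Kcnh6 reach 7.13% in E3 and 4.09% in CT.

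Some promoters differed by a few points with an adjusted p under 0.05, in either direction. In Kcnd3, a Shal subunit of the A-type current, 2.48% of 1010 reads were methylated in E3 and 0% of 448 in CT (adjusted p = 0.00092, Fisher's exact test). In the other direction, Kcna3 had 1.81% of 3979 reads in E3 and 4.44% of 1710 in CT (Fisher's exact test, adjusted p = 1.0e-06), and Kcnh5, an EAG subunit, 2.18% of 1698 and 4.78% of 816 (adjusted p = 0.0040). Kcna1, the Shaker subunit of axons, had 1.35% of 370 and 6.74% of 89 (Fisher's exact test, adjusted p = 0.033), and the silent subunit Kcns3 6.31% of 808 and 11.9% of 277 (adjusted p = 0.017). Most of the methylated CT reads of the Kcna1 promoter came from 1 CpG (position 126644862), with 5 of 11 reads in CT and 1 of 24 in E3. Each of these differences is under 10 points, and a read counts here once at each CpG it covers, so the p-values are too small.

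The promoters with over 10% of reads methylated in both libraries were those of Kcnh1, Kcna5 and Kcns1. In Kcnh1, the EAG channel gene of the brain, 63.5% of 167 reads were methylated in E3 and 46.7% of 45 in CT at 5 sites, with overlapping intervals (95% Wilson 55.9 to 70.4% and 32.9 to 60.9%, adjusted p = 0.14, Fisher's exact test). At the curated transcript starts of RefSeq, a later choice, the Kcnh1 window held 36 sites with 14.8% of 872 reads in E3 and 11.0% of 354 in CT. In Kcna5, a Shaker subunit that also acts in the heart, 22.4% of 559 reads were methylated in E3 and 31.9% of 376 in CT (Fisher's exact test, adjusted p = 0.0073), short of 10 points. In Kcns1 the levels were 14.2% of 520 reads and 14.5% of 200. After these and Kcns3 came Kcnh8 with 4.83% of 2197 reads and 3.65% of 630.

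**Figure D1:**
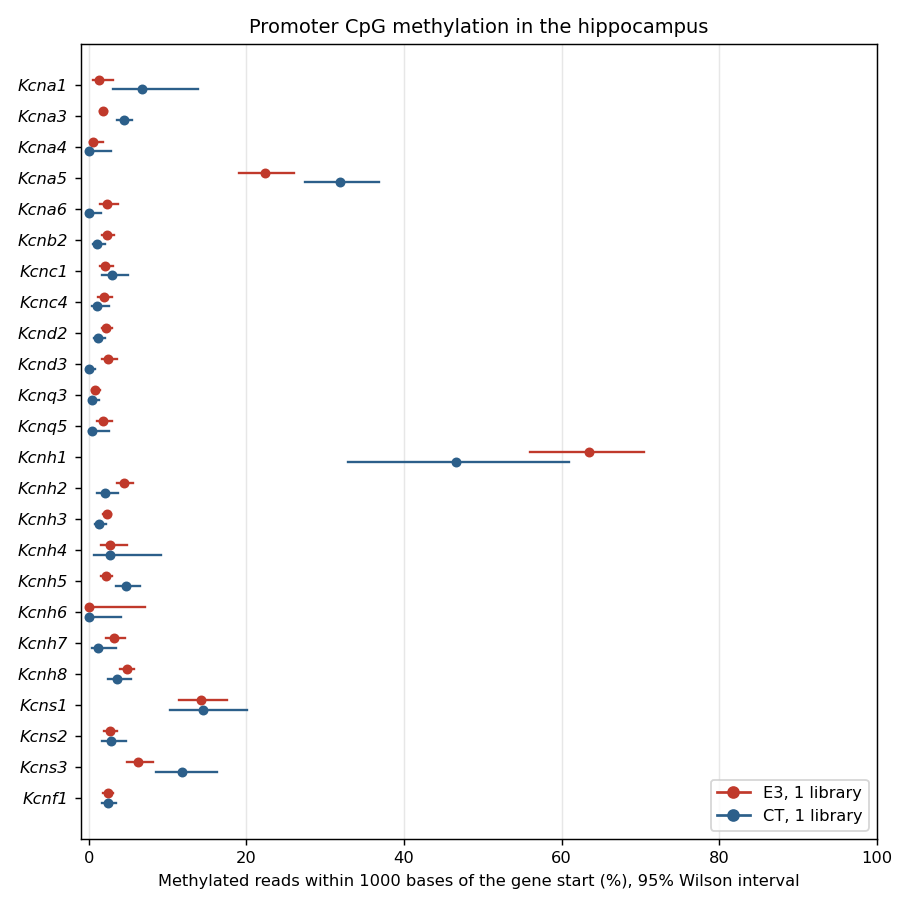
Methylated reads within 1000 bases of the gene start (x axis, %) for the 24 Kv genes with at least 5 measured sites (y axis), in 1 E3 (red) and 1 CT (blue) hippocampus library; lines are 95% Wilson intervals, which cover counting error only. Of the 24 genes, 20 lie under 10% in both libraries, and Kcnh1 (63.5% and 46.7%), Kcna5 (22.4% and 31.9%) and Kcns1 (14.2% and 14.5%) stand to the right.

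The Kcna5 and Kcns1 values came from stretches of unlike level inside the same window. Within 500 bases of the start, 5.28% of 341 Kcna5 reads were methylated in E3 and 1.86% of 215 in CT, so that the difference had the other sign, and the methylated CpGs lay from 915 bases after the start. Of the Kcns1 sites within 500 bases, 14.2% of 218 reads were methylated in E3 and 0% of 76 in CT (Fisher's exact test, adjusted p = 0.0010), which would be a call of hypermethylation. With at least 10 reads per site, Kcns1 had 16.8% of 244 reads in E3 and 3.95% of 76 in CT over 1000 bases (Fisher's exact test, adjusted p = 0.016), also past the threshold. Over the 24 Kcns1 sites the libraries differed by -0.27 points, and 4 CpGs 752 to 806 bases before the start were methylated in CT and not in E3.

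Of the 3500 sites, 144 were hypermethylated and 155 hypomethylated in E3, together 8.54%, where 11.0% of all sites of the table were called (6.18% higher, 4.83% lower). With the strands of a CpG summed, 131 of 2675 CpGs were higher and 137 lower, which is 10.02% against 12.1% over all CpGs (6.73% higher, 5.36% lower). After adjustment over all CpGs, 36 higher and 51 lower passed, 3.25% against 3.94% over all CpGs (2.36% higher, 1.58% lower). The share of called sites in the Kv genes was thus no larger than over the table, and the mean level over the 3500 sites was 38.6% in E3 and 39.4% in CT.

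A call needs a large difference at these depths, so sites whose mean over the libraries is near 0 or 100% can rarely be called. Sites with a mean of the libraries under 10% were called in 0.53% of 1686 cases, and sites of 90% or more in 0.38% of 796, while 29.1% of 244 sites between 10 and 30% and 37.5% of 344 between 30 and 70% were called. Over all sites the shares in these classes were 0.48%, 0.76%, 28.2% and 38.7%. In the promoters of the Kv genes 3 sites were higher and 35 lower of 1072 (3.54%), where 4.56% of the sites in promoters of coding genes were called (1.12% higher, 3.44% lower). In coding exons 54 were higher and 52 lower of 869, and in introns 83 higher and 62 lower of 1319, which is 12.2% and 11.0%, where 13.2% of the sites of coding genes outside promoters were called. Introns were methylated at a mean of 69.8% in E3 and 71.4% in CT, coding exons at 40.2% and 40.6%, and promoters at 3.41% and 3.33%.

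By family, 12 of 526 sites of the Shaker genes were higher and 27 lower, and of the silent subunits 10 of 493 were higher and 33 lower, 23 of the latter in Kcns1. Over all sites 6.18% were higher and 4.83% lower, but in promoters of coding genes 1.12% were higher and 3.44% lower. In the Shaker genes 0 promoter sites were higher and 12 lower of 174, and 12 and 11 of 196 in coding exons. In the silent subunits it was 1 and 11 of 191 in promoters, and 3 and 20 of 181 in coding exons. No difference between families was tested. In the ELK genes 17 of 320 were higher and 11 lower, and in the ERG genes 21 of 340 higher and 17 lower. The Shaw genes had 23 higher and 18 lower of 414, the Shal genes 20 and 16 of 449, the KCNQ genes 12 and 13 of 449, and the EAG genes 22 and 20 of 328. Kcnb2, the only Shab gene of the set, had 7 higher and 0 lower of 181.

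Kcns1, a silent subunit expressed in sensory and brain neurons, and Kcnh1 had the most called sites, 27 in each. In Kcns1, 4 were higher and 23 lower of 154 (17.5%), and 7.81% of the 10945 coding genes with at least 50 sites had a share as large or larger. In Kcnh1 14 were higher and 13 lower of 162. Kcnh7, an ERG subunit of the brain, leaned the other way from Kcns1, with 17 higher and 4 lower of 124. Kcna5 had 1 higher and 9 lower of 37 (27%). The median share over the 23 Kv genes with at least 50 sites was 7.33%, and over coding genes of that size 7.69%.

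Of the other genes with many calls, Kcnd3 had 10 higher and 9 lower, Kcnd2, the Shal subunit of dendrites, 10 and 7, Kcnc1, a Shaw subunit of fast-spiking neurons, 13 and 5, Kcnh3, an ELK subunit of the forebrain, 10 and 5, and Kcnh5 8 and 7. Kcnq3 had 5 higher and 9 lower, and Kcnh2, the ERG channel gene known from the heart, 2 and 11. The remaining 16 genes had between 2 and 12 called sites. The fewest were in Kcnv1, with 1 higher and 1 lower of 13.

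**Figure D2:**
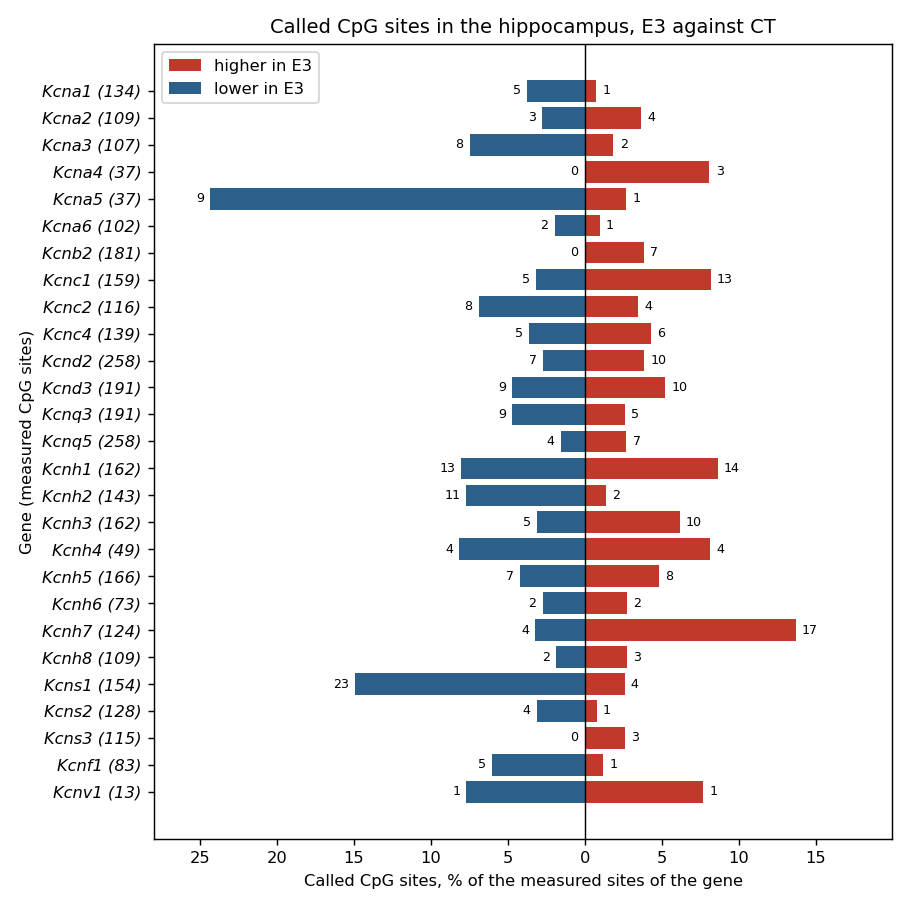
Called CpG sites of each Kv gene in the hippocampus as a share of its measured sites (x axis, %), hypermethylated in E3 to the right in red and hypomethylated to the left in blue; the number beside a bar counts the called sites, and the number in brackets the measured ones. Kcns1 (23 lower, 4 higher) and Kcna5 (9 lower, 1 higher) lean to the left and Kcnh7 (17 higher, 4 lower) to the right.

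The strands of a CpG are read from different fragments and give separate readings of the same CpG. Of 825 CpGs of the Kv genes read on both strands, 1 was hypermethylated on both and 4 were hypomethylated on both (0.61% against 1.73% of all such CpGs), 5 were called in opposite directions and 117 on 1 strand. Of all 503685 such CpGs, 4605 were higher on both strands, 4108 lower on both, 4531 opposite and 85693 called on 1 strand. Among CpGs with a call on either strand, 3.94% in the Kv genes were called alike on both, against 8.81% over all CpGs. The 5 CpGs called alike on both strands were in Kcna3, Kcnd3, Kcnh1, Kcnh2 and Kcnh5. Their surroundings, read from the mm10 genome along the strand of the gene, are shown for the last 4 of them, with the CpG in capitals and 20 bases on each side.
Kcnh5, coding exon, chr12:75007683-75007724, minus strand: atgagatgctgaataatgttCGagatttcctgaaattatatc
Kcnd3, intron, chr3:105528965-105529006, plus strand: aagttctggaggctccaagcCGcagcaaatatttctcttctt
Kcnh1, intron, chr1:192421501-192421542, plus strand: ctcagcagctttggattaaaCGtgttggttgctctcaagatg
Kcnh2, coding exon, chr5:24329237-24329278, minus strand: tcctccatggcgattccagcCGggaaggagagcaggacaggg
In 3 of the 4 sequences the marked CpG is alone, and it does not lie in a CpG-dense stretch as in the Kcna3 promoter.

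The Kcnh5 CpG was the one hypermethylated in E3. On the plus strand 95.3% of 64 reads were methylated in E3 and 43.8% of 16 in CT (p = 8.2e-06, Fisher's exact test, unadjusted), and on the minus strand 90.2% of 41 and 50.0% of 8 (p = 0.017). At the Kcnd3 CpG, 52.2% of 46 reads were methylated in E3 and 76.9% of 26 in CT on the plus strand, and 43.6% of 78 and 100% of 12 on the minus strand. At the Kcnh1 CpG, 34.3% of 35 and 100% of 6 reads were methylated on the plus strand, and 15% of 20 and 100% of 5 on the minus strand. At the Kcnh2 CpG it was 16.7% of 12 and 66.7% of 9 on the plus strand, and 12.5% of 8 and 66.7% of 12 on the minus strand. The CT readings of Kcnh1 and Kcnh2 rest on 5 to 12 reads.

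Neighbouring CpGs called in the same direction formed short runs, a pattern defined after the values were seen (at least 3 called CpGs, strands summed, with gaps of at most 100 bases). There were 12 runs in 8 Kv genes, 3 higher and 9 lower in E3 (over all CpGs 4631 runs were higher and 4689 lower), which held 53 of the 268 called CpGs (19.8%, against 17.96% over all CpGs). CpGs of a run share reads and are not separate readings. The 5 CpGs of the Kcna3 run lie in its coding exon, 732 to 771 bases after the start, at chr3:107036884-107036944 on the plus strand, and are in capitals.
Kcna3 run: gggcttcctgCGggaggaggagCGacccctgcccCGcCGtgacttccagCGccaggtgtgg
In E3, 0 to 4.69% of 70 to 128 reads were methylated at these CpGs, and in CT 13.3 to 41.4% of 29 to 50. At the last of them E3 had 0% of 70 reads and CT 41.4% of 29 (adjusted p = 2.2e-05, Fisher's exact test). The run is inside the 1000 bases of the Kcna3 promoter, whose E3 and CT levels were 1.81% and 4.44%, and it was the only run of that gene. The promoter difference and the run thus rest in part on the same reads and are not separate results.

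Kcns1 had 3 runs, all hypomethylated in E3. A run of 6 CpGs lies in a coding exon 2935 to 2982 bases after the start (chr2:164168121-164168189, minus strand), and a run of 4 CpGs lies 752 to 806 bases before the start (chr2:164171855-164171930, minus strand). The called CpGs are in capitals, and the first sequence holds 13 CpGs in 69 bases while the second holds 5 in 76.
Kcns1 coding exon run: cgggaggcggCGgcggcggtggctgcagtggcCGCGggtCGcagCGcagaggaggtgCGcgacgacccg
Kcns1 upstream run: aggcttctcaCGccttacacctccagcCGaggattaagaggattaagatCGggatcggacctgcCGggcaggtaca
In the coding exon run 0 to 4.08% of 49 to 98 reads were methylated in E3 and 18.8 to 43.8% of 16 to 32 in CT. In the upstream run no read of 7 or 8 was methylated in E3, and 85.7 to 100% of 6 or 7 were in CT. The CpG between them, at position 164171874, had 0% in both libraries. The third run, of 10 CpGs in the same exon (2293 to 2462 bases after the start), had 0 to 12.9% in E3 and 16.7 to 55.6% in CT, and 20 further measured CpGs within it were not called. At 5 of the 10 the CT level was 29.4%, of 34 or 17 reads.

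Kcna5 also had only hypomethylated runs, and these were in methylated DNA. At chr6:126533801-126533878 (minus strand, coding exon, 1688 to 1744 bases after the start) the 4 called CpGs in capitals had 60.5 to 73.7% of 38 or 39 reads in E3 and 100% of 17 or 18 in CT.
Kcna5 coding exon run: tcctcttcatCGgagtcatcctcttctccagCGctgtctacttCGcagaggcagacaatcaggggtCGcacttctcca
Next to this run, the CpG at position 126533894 went the other way, with 79.5% of 39 reads in E3 and 29.4% of 17 in CT (adjusted p = 0.022, Fisher's exact test). The other Kcna5 run, 928 to 1005 bases after the start, had 20.7 to 48.3% in E3 and 62.5 to 94.4% in CT, and it crosses the end of the promoter window.

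Kcnc1 had a hypomethylated and a hypermethylated run side by side, 1956 to 2017 and 2022 to 2091 bases after the start. The second begins at the end of a coding exon and continues into the intron (chr7:46398231-46398321, plus strand), and its 5 called CpGs are in capitals.
Kcnc1 exon end run: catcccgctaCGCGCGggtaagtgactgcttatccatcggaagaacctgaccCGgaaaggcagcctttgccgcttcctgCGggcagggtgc
These CpGs had 13.9 to 36.8% of 38 to 72 reads in E3 and 0 to 4.17% of 25 to 48 in CT, and none passed after adjustment. The hypomethylated run before it had 0 to 19.4% in E3 and 37.5 to 100% in CT, of 8 to 48 reads in CT. The remaining runs held 3 CpGs each, lower in E3 in Kcnf1 (0 to 2.13% against 13.6 to 18.2%) and before the start of Kcnh5 (0 to 4.94% against 30.0 to 33.3%), and higher in Kcnh3 (81.8 to 100% against 14.3 to 71.4%) and in an intron of Kcnh7 (88.9 to 97.8% against 55.6 to 61.1%).

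**Figure D3:**
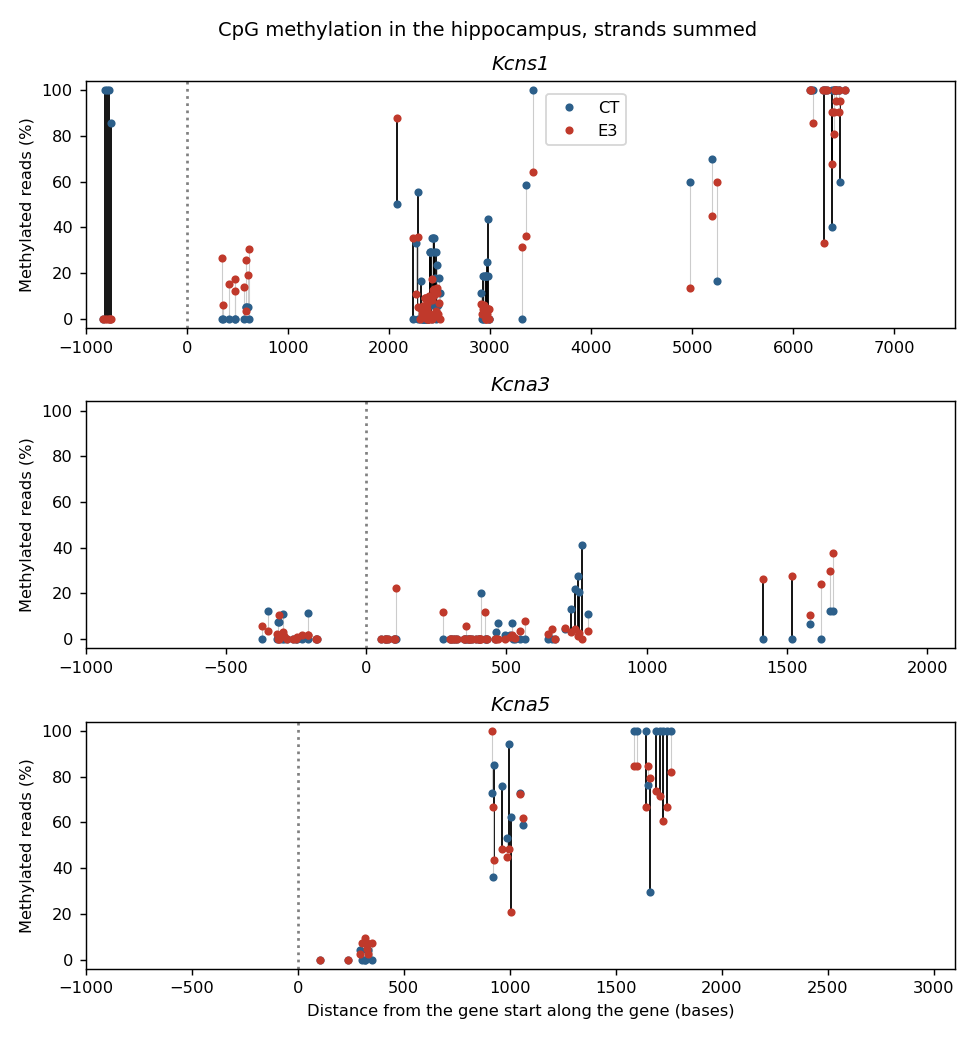
Methylated reads (y axis, %) at each measured CpG, strands summed, by distance from the gene start along the gene (x axis, bases) in Kcns1, Kcna3 and Kcna5, for 1 E3 (red) and 1 CT (blue) hippocampus library; a black line joins the values of a called CpG and a grey line those of another, and the dotted line is the start. The upstream Kcns1 run (0% in E3, 85.7 to 100% in CT), the Kcna3 run at 732 to 771 bases and both Kcna5 runs have E3 below CT.

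The 5 CpGs with the smallest p among the Kv genes were 1 each in Kcnh7, Kcnb2 and Kcna3 and 2 in Kcnd3, chosen after their values were seen. That of Kcna3 is the last CpG of its run. In an intron of Kcnh7 (position 62808694 of chromosome 2), 90.4% of 94 reads were methylated in E3 and 24.0% of 25 in CT (adjusted p = 1.7e-07, Fisher's exact test). In an intron of Kcnb2 (position 15361555 of chromosome 1) it was 100% of 22 reads in E3 and 0% of 10 in CT. In Kcnd3 an intron CpG (position 105616515 of chromosome 3) had 0% of 39 reads in E3 and 88.9% of 9 in CT, while another (position 105528891) had 81.2% of 32 and 13.3% of 30.

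Cytosines outside CpG carry little methylation in most tissues and some in neurons, and they also show cytosines that were not converted by bisulfite. Over the whole hippocampus table, 2.22% of reads at CHG sites were methylated in E3 and 2.29% in CT, and at CHH sites 2.44% and 2.67%. The median over the Kv genes was 2.03% in E3 and 1.87% in CT at CHH sites of 27 genes, with 1.98% and 1.65% over 17071 coding genes. At CHG sites it was 1.75% and 1.88% over 26 Kv genes, with 1.85% and 1.61% over 14060 coding genes.

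With CHG and CHH reads summed, 5 Kv genes had over 3% in CT. These were Kcnh4, an ELK subunit, with 6.67% in CT and 1.44% in E3, Kcnh5 with 5.65% and 2.18%, Kcna6, a Shaker subunit, with 4.83% and 2.02%, Kcna5 with 3.67% and 1.66%, and Kcna1 with 3.04% and 0.89%. The share of all coding genes over 3% was not counted for the summed reads. At CHH sites alone, the CT level of Kcnh2, 3.13%, lay above that of 81% of coding genes. These genes were picked by their CT level and the windows below by their methylated CT reads, so CT above E3 follows in part from the choice. In E3 the highest gene was Kcnb2, with 2.99% against 2.43% in CT. A read counts here once at each cytosine it covers. In Kcnh4, the window of 300 bases with most methylated CT reads held 88.3% of them, 279 of 589 reads there (47.4%). E3 had 0.73% of 1925 in that window, and without it CT was at 0.89%. In Kcna1 such a window held 72.2% of the methylated CT reads. A like level lay in some of the CpG runs. Non-CpG cytosines within the span were methylated in 30.0% of 60 CT reads and 0% of 249 E3 reads in the Kcnh5 run, summed over 5 cytosines. In CT and E3 the levels were 8.53% and 0.43% in the Kcna5 coding exon run and 6.02% and 0.92% in the other Kcna5 run. They were 7.89% and 0% in the upstream Kcns1 run. In the Kcna3 run the level was 0.54% in CT and 1.71% in E3, and in the Kcns1 coding exon run 0.42% and 0.14%. The Kcnh7 run, hypermethylated in E3, had 3.2% in CT and 6.67% in E3. The hypomethylated Kcnc1 run had 4.5% in CT and 2.4% in E3, and the hypermethylated one 0% and 0.15%. The long Kcns1 run had 1.70% and 0.42%, the Kcnf1 run 1.12% and 2.1%, and the Kcnh3 run 0% and 0.20%. Around the CpGs called on both strands, CT was between 0 and 5.06%, the latter at Kcnh2. The part of these reads in the CpG calls was not tested.

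**Figure D4:**
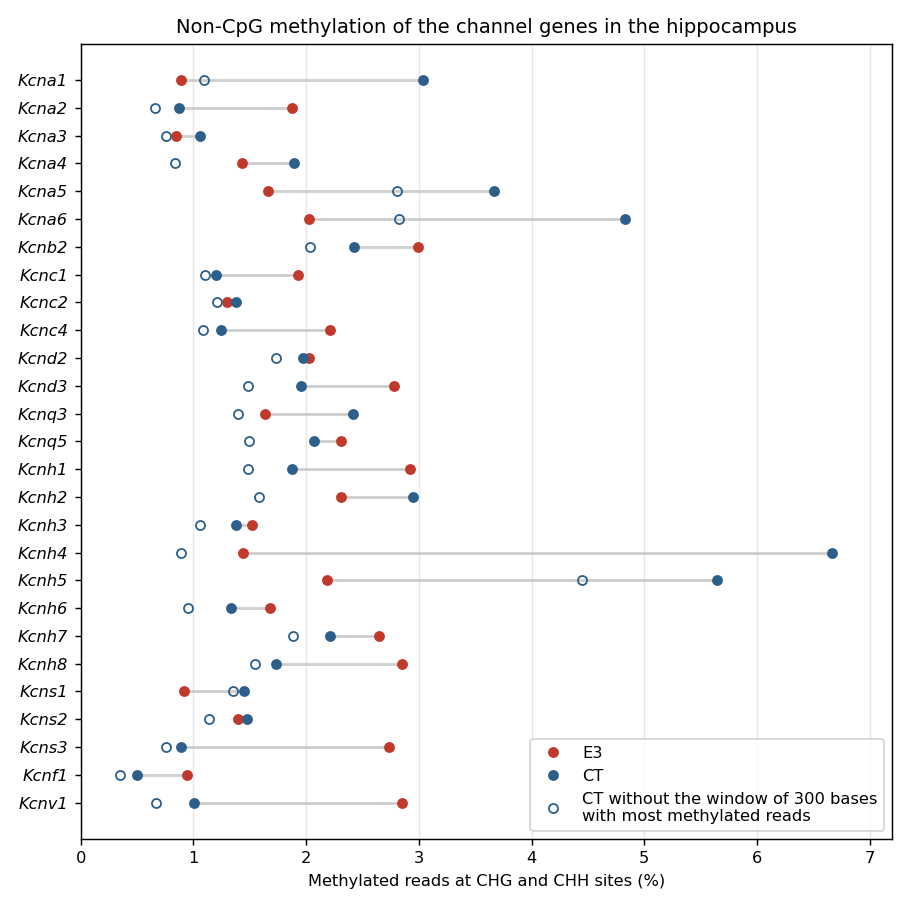
Methylated reads at CHG and CHH sites (x axis, %) of each Kv gene (y axis) in 1 E3 (red) and 1 CT (blue) hippocampus library; the open circle is CT without the window of 300 bases that held most methylated CT reads. Kcnh4 moves from 6.67% to 0.89% without its window, and Kcnh5 stays at 4.44%.

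In the frontal cortex, 19 listed CpG sites lay in 8 of the 27 Kv genes, where 18.5% of coding genes had at least 1 listed site. The Kv genes span 1.97 kb (Kcna3) to 564 kb (Kcnq5), and gene length was not taken into account in this share. Of the 19, 10 were hypermethylated and 9 hypomethylated in E3, while 63.7% of all listed sites were hypomethylated. Kcnc1 held 4 sites, all lower in E3, Kcns1 held 3 higher and 1 lower, Kcnh5 3 higher and 1 lower, and Kcnh1 3 higher. Kcna2, Kcnd3 and Kcnh8 held 1 lower site each and Kcnq5, a KCNQ subunit of hippocampal neurons, 1 higher. The listed sites had passed the authors' thresholds, so their differences are a description.

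The listed sites of Kcns1 that were higher in E3 lay together in its last coding exon. At positions 164164688, 164164709 and 164164818 of chromosome 2, 54.2%, 45.8% and 41.4% of the frontal cortex reads were methylated in E3 and 0% in CT. In the hippocampus the same CpGs had 100%, 81.0% and 100% in E3 and 100% in CT at each of the 3. The remaining Kcns1 site (position 164168594, 2519 bases after the start) had 2.78% in E3 and 24.0% in CT in the frontal cortex. It lies beside the long hypomethylated hippocampus run of that exon and was itself not measured there, and of 16 hippocampus CpGs within 100 bases of it 5 were hypomethylated and none hypermethylated.

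Sites listed in a promoter by the authors were in Kcna2, Kcnh5 and Kcnh8, 1 in each and all lower in E3, where 9.99% of coding genes had a listed promoter site. In Kcna2, a Shaker subunit of axons, the site lay 10652 bases after the RefSeq gene start used here, and 0% was methylated in E3 and 25% in CT. The levels were 4.54% and 57.1% in Kcnh5 (588 bases before the start), and 1.43% and 18.8% in Kcnh8, an ELK subunit. In the hippocampus the Kcnh5 CpG had 0% of 15 reads in E3 and 27.3% of 11 in CT, which was not called (p = 0.063, Fisher's exact test), and the Kcnh8 CpG had 0% of 88 and 0% of 27. The Kcna2 CpG was not measured there, but 23 CpGs within 100 bases of it had a mean of 2.35% in E3 and 0.22% in CT, with none called.

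Of the 19 CpGs, 13 were measured in the hippocampus and 3 of them were called there, 1 in the same and 2 in the opposite direction. Over all listed sites, 1932 of 6651 measured sites were called in the hippocampus, 49.6% of them in the same direction. The CpG alike in both tissues was in a coding exon of Kcnh5 (position 74976668 of chromosome 12), with 74.3% in E3 and 25.9% in CT in the frontal cortex and 67.6% of 37 and 33.3% of 15 reads in the hippocampus (p = 0.032, Fisher's exact test, unadjusted). In Kcnd3 the listed site (position 105529014) had 17.3% in E3 and 41.0% in CT in the frontal cortex and 48.4% of 62 and 57.9% of 19 in the hippocampus, where it was not called. It is close to the Kcnd3 CpG that was lower on both strands, and of 3 hippocampus CpGs within 100 bases of it 2 were hypomethylated. All 19 listed sites had measured hippocampus CpGs within 100 bases. At 4 listed sites such CpGs were called only in the direction of the listed site, at 1 only in the opposite direction and at 4 in both. At 10 none was called, among them the Kcnh5 site at 74976668, with 3 such CpGs.

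The CpGs that went opposite ways were both in Kcnc1. The one in an intron, at position 46418322 of chromosome 7, had 41.9% in E3 and 85.1% in CT in the frontal cortex, and 84.8% of 46 reads and 50.0% of 22 in the hippocampus (p = 0.0037, Fisher's exact test, unadjusted). The other, at position 46398283, belongs to the hypermethylated hippocampus run printed above, with 28.0% of 50 reads in E3 and 3.12% of 32 in CT (Fisher's exact test, p = 0.0067), and had 4.81% and 17.1% in the frontal cortex. Of 16 hippocampus CpGs within 100 bases of position 46398283, 3 were lower and 6 higher in E3. The libraries of the tissues were separate, and the difference between tissues was not tested.

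**Figure D5:**
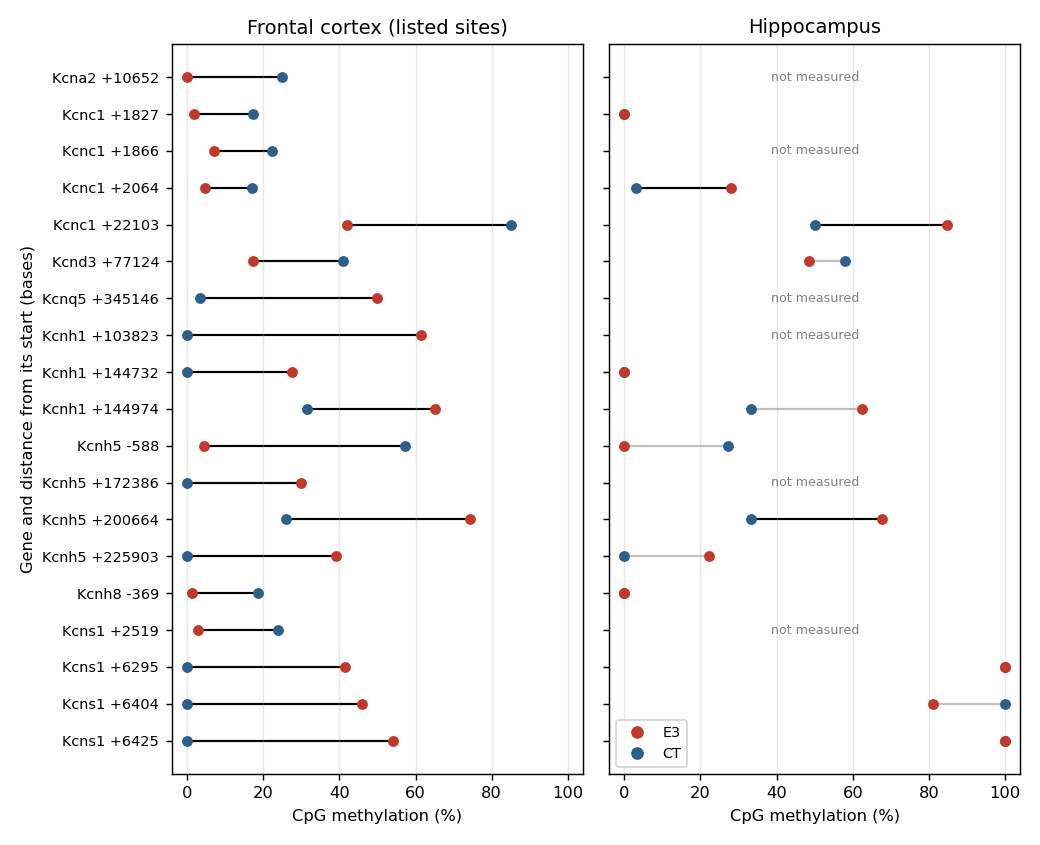
CpG methylation (x axes, %) at the 19 sites of Kv genes listed in the frontal cortex (left) and at the same CpGs in the hippocampus (right), E3 in red and CT in blue, 1 library each; a black line marks a called difference, and each row gives the gene and the distance from its start in bases. The 3 sites at the end of Kcns1 are at 0% in frontal cortex CT and at 100% in hippocampus CT, and the Kcnc1 sites at 2064 and 22103 bases have opposite signs in the tissues.

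Outside CpG, 5 CHG sites in 5 Kv genes and 19 CHH sites in 12 Kv genes were listed in the frontal cortex, where 7.64% and 16.5% of coding genes had a listed CHG or CHH site. Of these, 4 of 5 and 17 of 19 were lower in E3. Over all listed sites 79.5% at CHG and 75.3% at CHH were lower. Gene length was not taken into account in the shares of genes.

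The other genes of the channels were counted in the same way. Of 13 further pore-forming and silent subunit genes, 147 of 2042 hippocampus sites were higher in E3 and 117 lower (12.9%), and 0 of 10 measured promoters was called. Of 14 auxiliary subunit genes, whose proteins bind the channels and change their gating or surface level, 171 of 1872 sites were higher and 144 lower (16.8%). Of 10 auxiliary promoters 2 were hypomethylated, both of the KCNE family of small membrane proteins. Kcne4 had 64.5% of 431 reads in E3 and 85.4% of 261 in CT, and Kcne1l (also named Kcne5) 46.6% of 755 and 58.4% of 245. Over all features 11.0% of sites and 9.67% of promoters were called, and the difference between these lists and the 27 Kv genes was not tested. In the frontal cortex, the further pore-forming genes had 4 listed CpG sites, all lower in E3, and the auxiliary genes 12, of which 9 were lower.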

How the data were processed

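Female CD-1 offspring gave 1 Methyl-MiniSeq library for each tissue (frontal cortex, hippocampus) and treatment (E3, CT). The authors trimmed reads with TrimGalore, aligned them to mm10 with Bismark and called methylation with MethylDackel. The authors' hippocampus tables hold the read count (coverage) of each site per library and its methylated fraction to 2 decimals, from which methylated reads were rebuilt by rounding. Rebuilt values can be off where a site has over 100 reads (1.18% of CpG sites in E3, 0.184% in CT). The frontal cortex tables deposited by the authors hold methylated fractions of called sites. The tables of both tissues also hold the authors' p-values, and those of the frontal cortex adjusted p-values and differences. None of these was used.

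Sites had at least 5 reads in both libraries. A call needed an unadjusted p under 0.05 in a 2-sided Fisher's exact test and 10 points of difference or more, the thresholds of the study's methods, and every site of the table was tested. Promoters spanned 1000 bases on each side of the RefSeq gene start (GRCm38.p6), with at least 5 sites and Benjamini-Hochberg adjustment over all promoters. Intervals are 95% Wilson intervals and cover counting error only. Reads carry no molecular identifiers.

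The genes, lists and tests were chosen with earlier results of these data known. Described by values are genes with CpGs called alike on both strands, the 10 genes with most called sites, those with most or with promoter sites listed in the frontal cortex, and the 5 highest and lowest promoters by the mean of the libraries. Alternatives were coverage minimums of 10 and 20 reads, adjusted p-values, differences of 25 points, very deep sites left out, summed strands, promoters of 500 bases or at least 10 sites, and means over sites. Curated starts, Kcns1 left out and halved reads were added after the data were seen. Python 3.11.15, scipy 1.17.1, pandas 2.3.3 and numpy 2.4.6 were used.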

Additional observations from a re-analysis of the deposited data

Results flagged for a closer look

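At 2 CpGs of Kcnc1 the E3 library lay below CT in the frontal cortex and above CT in the hippocampus. At position 46418322 of chromosome 7 the difference of E3 minus CT was -43.2 points in the frontal cortex and 34.8 points in the hippocampus. At position 46398283 it was -12.3 points and 24.9 points. Each tissue had 1 library per treatment, the depth in the frontal cortex is unknown, and the difference between the tissues was not tested.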

How the results depend on the processing

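The counts of called sites changed with the settings that left fewer sites or asked for a stricter p. With a coverage minimum of 10 reads, 187 sites were called (93 higher and 94 lower of 1626), and with 20 reads 53 (18 higher and 35 lower of 318), with 14.1% and 18.4% called over the table. With adjusted p-values 95 sites were called (43 higher and 52 lower), with 3.35% over the table. With strands summed, 98 CpGs were called at 20 reads (43 higher and 55 lower of 641) and 87 with adjusted p-values (36 higher and 51 lower), with 17.5% and 3.94% over all CpGs. A difference of 25 points, deep sites left out and summed strands gave 266, 288 and 268 calls, where the report has 299. Without Kcns1, 140 sites were higher and 132 lower.

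At 500 bases on each side and at 10 reads per site, 1 promoter was called, higher in E3 in both cases, that of Kcns1. Its difference changed from -0.27 points to 14.2 and 12.9 points, and that of Kcna5 from -9.55 to 3.42 points at 500 bases. At least 10 sites, means over sites, a difference of 25 points and curated starts left 0 called.

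Depth at 356 of the 3500 sites (10.2%) was exactly 2 times that of a site within 50 bases on the same strand in both libraries, and 97.5% of these 356 had even numbers of methylated reads in both, against 51.5% of the others. With reads halved there, 141 sites were higher and 143 lower. Reads counted 2 times at other sites would not be found this way. No paired analysis was possible because each group has 1 library, and no library could be left out for the same reason. Low depth in CT (a median of 9 reads) limits which differences can be called.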
